A study of Mus musculus with 31 samples.

Results

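The genes described here build and guard the machinery that carries proteins into mitochondria. They were chosen by name and gene type, with earlier results of these data known: every protein-coding gene whose GENCODE vM21 symbol begins with Timm or Tomm followed by a digit, together with Hspd1, Hspe1, Hspa9, Trap1, Lonp1, Clpp, Clpx, Afg3l2, Phb, Phb2, Pmpca, Pmpcb, Grpel1 and Samm50. This gave 39 genes of the 34519 gene identifiers that both count tables of the series share, of which 21397 are protein-coding. By role, 11 are TOM genes or Samm50, most of them of the outer membrane, 15 are TIM genes of the inner membrane and the space before it, 7 are chaperones, motor parts or scaffolds, and 6 are proteases.

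Nearly all mitochondrial proteins are made in the cytosol and enter through the TOM complex, a pore in the outer membrane with receptors that recognise targeting signals. Proteins with a cleavable presequence go on through the presequence translocase, pulled in by the matrix Hsp70 motor, while metabolite carriers are handed by small chaperones to the carrier translocase. In the matrix a processing peptidase removes the presequence, the chaperonin folds the protein, and proteases of the AAA+ type degrade what fails, a load that is high in mitochondria-rich tissues such as liver and skeletal muscle.

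The series concerns the nuclear receptor ERRα (gene Esrra) in insulin action and holds 31 libraries of total RNA from C57BL/6N mice in 8 groups. In the insulin experiment, WT and ERRα-/- (KO) mice were fasted for 12 h overnight and injected intraperitoneally with saline or with insulin at 1 unit per kg, and the liver was taken 4 hours later. Its groups are WT liver with saline (n = 4), WT liver with insulin (n = 4), KO liver with saline (n = 4) and KO liver with insulin (n = 3, numbered 1, 2 and 4). In the other experiment, with no injection recorded, liver and skeletal muscle came from homozygous ERRα3SA mice, a CRISPR/Cas9 knock-in that turns 3 serines of ERRα into alanine, and from their WT littermates (n = 4 for each genotype and tissue). Per the methods the mice were 2 to 3 months old, male and on a standard diet, the 3SA line had been backcrossed to C57BL/6N, and each replicate is a separate mouse.

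Sequencing depth is given as the counts assigned to genes. The insulin experiment held 38537068, 37508292, 40800316 and 41740965 counts in WT saline livers, 38518400, 35871419, 38856911 and 40590962 in WT insulin livers, 40138959, 39250853, 48317108 and 42874994 in KO saline livers and 40067603, 39188721 and 38156804 in KO insulin livers. The 3SA experiment held 33412022, 26176391, 24687935 and 23426588 counts in WT littermate livers, 22836176, 22471238, 22454730 and 20481405 in 3SA livers, 25831378, 23561675, 25058838 and 24923581 in WT littermate muscles and 22241960, 27869143, 28835765 and 25318757 in 3SA muscles. At these depths a count of 0 allows up to 3 counts at 95% confidence, which is 0.0621 to 0.146 CPM (counts scaled to a common library size), and this limit covers counting error only. All levels below are CPM scaled by edgeR's TMM factors, and since each table was normalised on its own, levels of the insulin experiment are not set against those of the 3SA experiment.

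Esrra itself was read first, as a check on the genotype labels. It had 1246, 1866, 1870 and 1753 counts in WT saline livers and 2021, 3400, 2345 and 2487 in WT insulin livers, against 62, 29, 53 and 47 in KO saline livers and 32, 21 and 11 in KO insulin livers. Every KO library lay far below every WT library, with log2 fold changes of -5.20 with saline (edgeR adjusted p = 2.6e-06) and -6.86 with insulin (edgeR adjusted p = 3.6e-05). Within WT livers Esrra was itself a DEG, higher with insulin and with the groups apart (log2 fold change 0.67, edgeR adjusted p = 0.1215). In the 3SA experiment Esrra had 869, 683, 657 and 660 counts in WT littermate livers, 625, 538, 430 and 399 in 3SA livers, 2567, 2092, 1766 and 2043 in WT littermate muscles and 432, 4020, 3920 and 2957 in 3SA muscles. The 3SA mice carry the gene, and only the muscle of replicate 1 fell out of its group, at 432 counts. A fault of that library and a swapped sample cannot be told apart from the files.

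A gene known to respond to insulin in liver served as a check on the treatment. Igfbp1, which insulin is known to lower, was at 167, 199.6, 154 and 77.6 CPM in saline and 773, 1539, 301 and 442 CPM in insulin-treated WT livers. All insulin livers were above all saline livers, the opposite of the known direction (log2 fold change 2.35, edgeR adjusted p = 0.0225), and in KO livers its log2 fold change upon insulin was 1.29 (edgeR adjusted p = 0.238). Whether the saline and insulin columns carry the labels the mice were treated by could not be settled from the files, and an exchange would reverse the direction of every insulin effect described here.

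Marker lists fixed for 8 cell types gave the tissue labels and the libraries that stand apart, as summed CPM. All 5 hepatocyte markers (Alb highest) were read in every liver, at 53078 to 93839.8 CPM, and in muscle they summed to at most 1.36 CPM. All 5 muscle fibre markers (Myh4 highest) were read in every muscle, at 98647 to 146488 CPM. In the livers muscle fibre markers summed to at most 9.04 CPM, except in WT insulin replicate 3 with 77.9 CPM (5 of 5 markers, Acta1 highest). Macrophage markers (4 of 4 in every liver) spanned 115 to 333 CPM in livers, endothelial markers 83.5 to 187 CPM, stellate or fibroblast markers 105 to 212 CPM, cholangiocyte markers 0.890 to 3.498 CPM in the insulin experiment, 4.47 to 5.31 CPM in WT littermate livers and 1.78 to 2.76 CPM in 3SA livers, and lymphocyte markers 3.79 to 13.1 CPM. Adipocyte markers (Cidec highest in livers) spanned 13.8 to 103 CPM in livers of the insulin experiment and 1.07 to 4.63 CPM in livers of the separately normalised 3SA experiment. In muscle the endothelial markers spanned 213 to 251 CPM, the cholangiocyte markers 0.466 to 1.97 CPM and the adipocyte markers 23.7 to 63.2 CPM.

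A few libraries stood apart before any test. Muscle of 3SA replicate 1 had 19.3% of its counts on genes of the mitochondrial genome, against 9.15% to 9.85% in the other 3SA muscles, and 0.267% on the 39 genes described here, against 0.348% to 0.360%. Its TMM factor was 0.799, against 1.07 to 1.24. Muscle of 3SA replicate 4 carried more counts of other cell types: macrophage markers summed to 5.39, 7.18, 7.25 and 47.8 CPM over the 4 replicates (Adgre1 highest in the first 3 and Cd68 in the last, Clec4f at 0 in all 4), fibroblast markers to 1169, 1189, 1036 and 3272 CPM (Col3a1 highest in the last, Dcn in the others) and lymphocyte markers to 4.09, 4.81, 3.71 and 18.8 CPM (Ptprc highest). Liver of 3SA replicate 4 had the fewest hepatocyte counts, with sums of 90966, 78886, 87131 and 53078 CPM over the 4 replicates, the most macrophage counts at 333 CPM, and a median level of the tested genes of 5.28 log2 CPM against 5.55 to 5.58. Liver of WT insulin replicate 2 had 1.88% of its counts on the mitochondrial genome, against 3.88% to 4.17% in the other insulin-treated WT livers. Results that rest on these libraries are given with and without them.

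Of the 39 genes, 36 passed the filter on low counts in every comparison, and 3 did not. Timm8a2, a paralog of Timm8a1, had 0 counts in all 31 libraries. Tomm20l, a paralog of the receptor Tomm20, had 0 to 2 counts, and Tomm6, a small TOM subunit, had 0 to 1. For Tomm6, 84.2% of the exon bases lie under other genes (Gm21981, Tomm6os and Usp49), so its reads cannot be told apart from theirs, nor can its transcript be called absent. The strand setting of the counting is not stated, and other genes also share exon bases with neighbours: Tomm40l for 64.3% (Nr1i3), Timm10b for 22.1%, Pmpca for 20.4% (Inpp5e), Timm8b for 15.6% (Nkapd1) and Grpel1 for 11.6% (Tada2b). Hspd1 and Hspe1 lie head to head and share 4.24% and 7.60% of theirs.

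Per length, the chaperones stood at the top in liver. In CPM per kilobase of exon (union of all annotated exons), averaged over the WT littermate livers, the chaperonin Hspd1 was first at 202, followed by the motor Hsp70 Hspa9 at 149, the protease unfoldase Clpx at 118, the Hsp90 paralog Trap1 at 81.5 and the chaperonin lid Hspe1 at 79.9. Each of the first 3 differed from its neighbour beyond the spread over mice, whereas Trap1 and Hspe1 overlapped. The most abundant import genes per length were Timm8b at 49.8 and Timm13 at 43.96, whose values overlapped, and at the other end lay Timm17a at 2.86, Tomm40l at 1.15 and Timm10b at 0.823, each apart from the next. In WT littermate muscle Hspa9 led at 133, then Hspd1 at 87.8 and Timm23 at 86.1, whose values overlapped, then Trap1 at 71.7 and Timm8b at 69.8, which overlapped too. Timm23, the channel subunit of the presequence translocase, thus took rank 3 in muscle and rank 11 in liver, where it was at 38.6 CPM per kilobase. These orders hold for the union of exons as the length only: by the longest coding transcript the means put Hspe1 above Clpx and Timm23 above Timm8b in liver, and Timm23 above Hspd1 in muscle.

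Promoters (250 bases before to 50 after the start, from RefSeq on build GRCm38.p6) were found for 34 of the 39 genes, 37 promoters in all, and were searched on both strands for 4 motifs; Afg3l2, Hspa9, Timm21, Tomm40l and Tomm7 had no entry. The ERR response element, TNAAGGTCA, stood in 1 of the 37, that of Timm8b, and in 1.28% of all 32851 promoters. The E-box CACGTG stood in 8 of the 37 (Hspd1, Lonp1, Phb, Timm10, Timm8a1, Timm9, Tomm20 and Tomm20l) and in 7.15% of all. The heat shock repeat, GAANNTTC or TTCNNGAA, stood in 10 of the 37 (Clpp, Hspd1, Hspe1, Phb, Timm10, Timm13, Timm8a2, Timm9, Tomm20 and Tomm22) and in 15.1% of all, and the core of the NRF1 motif (AT with GCGC on either side) in 0 of the 37 and 0.971% of all. A match is a description of the letters in this window and not a binding site. The sequences of 5 promoters follow as examples, 5′ to 3′ on the gene's strand with matches in capitals. They do not stand for the genes with the firmest results below. The promoters of Timm17a, Timm23, Grpel1 and Clpx, which pass an adjusted p under 0.05 upon insulin in WT liver, hold none of the 4 motifs and are not shown. Timm8b (chr9:50603651-50603950, plus strand) holds the ERR element at -96 from the start. Timm10 (chr2:84826771-84827070, plus strand) holds a heat shock repeat at 14 and an E-box at 28. Tomm20 (chr8:126945872-126946171, minus strand) holds a heat shock repeat at -234 and an E-box at -126. Hspe1 (chr1:55087898-55088197, plus strand) holds 3 heat shock repeats upstream of the start that overlap each other in one run, and its window lies over that of Hspd1 on the minus strand, which reads the same repeats. Tomm5 (chr4:45108064-45108363, minus strand) holds none of the 4.
Timm8b: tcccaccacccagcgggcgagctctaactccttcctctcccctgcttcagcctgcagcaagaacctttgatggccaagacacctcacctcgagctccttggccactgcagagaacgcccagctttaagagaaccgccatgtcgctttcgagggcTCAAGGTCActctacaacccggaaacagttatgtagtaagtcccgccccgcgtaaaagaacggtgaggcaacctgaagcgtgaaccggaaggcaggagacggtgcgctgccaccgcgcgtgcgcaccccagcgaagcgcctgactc
Timm10: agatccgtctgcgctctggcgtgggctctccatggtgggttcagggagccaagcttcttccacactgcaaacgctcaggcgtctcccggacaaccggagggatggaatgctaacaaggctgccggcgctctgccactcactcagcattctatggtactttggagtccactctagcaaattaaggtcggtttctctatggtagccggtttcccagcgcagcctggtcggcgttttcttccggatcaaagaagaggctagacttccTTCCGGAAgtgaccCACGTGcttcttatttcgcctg
Tomm20: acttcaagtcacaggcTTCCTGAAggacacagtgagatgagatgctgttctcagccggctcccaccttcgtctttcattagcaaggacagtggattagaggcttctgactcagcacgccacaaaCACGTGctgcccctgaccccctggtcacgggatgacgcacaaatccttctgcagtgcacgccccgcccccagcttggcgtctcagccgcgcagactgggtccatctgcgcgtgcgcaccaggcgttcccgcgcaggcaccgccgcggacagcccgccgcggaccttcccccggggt
Hspe1: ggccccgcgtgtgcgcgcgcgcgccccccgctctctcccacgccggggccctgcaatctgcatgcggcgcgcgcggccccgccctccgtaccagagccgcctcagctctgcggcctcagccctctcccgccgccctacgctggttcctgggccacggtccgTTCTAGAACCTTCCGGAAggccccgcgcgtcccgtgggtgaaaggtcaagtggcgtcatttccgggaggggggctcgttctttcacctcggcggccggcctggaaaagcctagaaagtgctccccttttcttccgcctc
Tomm5: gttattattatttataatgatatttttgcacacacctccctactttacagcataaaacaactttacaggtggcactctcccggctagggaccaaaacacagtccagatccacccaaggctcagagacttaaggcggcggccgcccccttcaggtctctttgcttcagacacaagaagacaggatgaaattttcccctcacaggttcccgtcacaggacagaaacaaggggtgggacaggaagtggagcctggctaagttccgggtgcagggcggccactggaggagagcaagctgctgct

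Insulin was followed by higher levels of import genes in WT liver. By the study's rule for DEGs (a p under 0.05 before adjustment, and at least 1.2 times up or down), tested here with edgeR's quasi-likelihood test, 13 of the 36 genes rose and 0 fell, where the same rule called 17.2% of all genes tested, 8.34% of them higher and 8.91% lower. At a Benjamini-Hochberg adjusted p under 0.05, 6 of the 36 rose and 0 fell, against 3.16% of all genes (1.52% higher, 1.63% lower). The DEGs were 2 of 9 TOM genes, 6 of 14 TIM genes, 1 of 6 proteases and 4 of the 7 chaperones, motor parts or scaffolds. Those 4 were Grpel1, Phb, Phb2 and Hspe1. Of the 36 genes, 31 had a positive log2 fold change, as did 50.3% of all genes, and the median was 0.24, against 0.00 over all genes. In bulk tissue a change in the share of cells and a change in RNA per cell cannot be told apart.

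At the outer membrane, a receptor and a small subunit carried the response. Tomm20, the receptor for presequences, was at 55.03, 55.7, 51.2 and 48.5 CPM in saline and 71.7, 90.9, 81.3 and 77.3 CPM in insulin-treated WT livers. The lowest insulin liver lay above the highest saline liver (log2 fold change 0.61, SE 0.12, edgeR adjusted p = 0.0191). Tomm5, a small subunit that steadies the pore, was at 4.71, 5.196, 5.599 and 4.74 CPM in saline and 7.41, 10.2, 9.04 and 10.8 CPM in insulin-treated WT livers. The groups did not overlap, and all 4 insulin livers exceeded 7 CPM (log2 fold change 0.89, SE 0.18, edgeR adjusted p = 0.0226). Tomm40, the pore itself, was at 26.4, 23.2, 22.1 and 23.4 CPM in saline and 27.6, 35.999, 23.96 and 25.3 CPM in insulin-treated WT livers. Replicate 2 of the insulin group was the high value, the groups overlapped, and Tomm40 was not called (log2 fold change 0.25, edgeR adjusted p = 0.421). Tomm70a, the receptor for carrier precursors, was at 177, 169.6, 168 and 158 CPM in saline and 158, 204, 170.2 and 163 CPM in insulin-treated WT livers, again with overlap (log2 fold change 0.05, edgeR adjusted p = 0.888). The log2 fold changes of the other TOM genes tested ran from -0.34 for Tomm34, a cytosolic cochaperone, to 0.40 for Tomm7, and that of the sorting protein Samm50 was 0.32 (edgeR adjusted p = 0.303).

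Among the TIM genes, the channel subunits Timm17a and Timm23 of the presequence translocase were past the adjusted threshold. Timm17a was at 18.2, 20.98, 20.8 and 19.9 CPM in saline and 27.9, 30.2, 29.4 and 36.6 CPM in insulin-treated WT livers. Every insulin liver lay above every saline liver, replicate 4 highest (log2 fold change 0.63, SE 0.12, edgeR adjusted p = 0.0224). Timm23 was at 69.4, 69.5, 67.01 and 59.1 CPM in saline and 97.7, 120.5, 89.6 and 84.8 CPM in insulin-treated WT livers. The groups were again apart, here with replicate 2 highest (log2 fold change 0.57, SE 0.13, edgeR adjusted p = 0.0461). The other channel form, Timm17b, was at 24.4, 22.7, 20.9 and 25.04 CPM in saline and 24.6, 31.7, 24.6 and 27.2 CPM in insulin-treated WT livers, overlapped and was not called (log2 fold change 0.22, edgeR adjusted p = 0.419), nor were 2 partners in the same complex. Timm50, the receptor that takes over from TOM, was at 21.4, 26.9, 23.4 and 25.8 CPM in saline and 28.9, 29.7, 20.9 and 25.2 CPM in insulin-treated WT livers, and the groups overlapped (log2 fold change 0.10, edgeR adjusted p = 0.767). Timm44, which ties the Hsp70 motor to the channel, was at 32.2, 25.98, 31.1 and 29.5 CPM in saline and 29.5, 35.2, 31.5 and 36.3 CPM in insulin-treated WT livers, with overlap as well (log2 fold change 0.16, edgeR adjusted p = 0.556).

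The small chaperones of the intermembrane space, which hand carriers and other inner membrane proteins across, formed the remaining TIM calls. Timm10 was at 4.71, 6.02, 6.38 and 6.82 CPM in saline and 6.004, 12.8, 9.899 and 11.4 CPM in insulin-treated WT livers. Replicate 1 of the insulin group stayed within the saline range and the other 3 lay above it (log2 fold change 0.75, SE 0.24, edgeR adjusted p = 0.128). Timm13 was at 23.1, 18.7, 24.3 and 25.98 CPM in saline and 30.02, 40.7, 26.1 and 31.8 CPM in insulin-treated WT livers, with a narrow gap between the highest saline and the lowest insulin liver (log2 fold change 0.48, SE 0.16, edgeR adjusted p = 0.149). Timm8a1, its partner, was at 10.6, 10.996, 10.7 and 10.3 CPM in saline and 13.3, 16.0, 11.96 and 12.7 CPM in insulin-treated WT livers. All insulin livers lay above all saline livers by a small margin (log2 fold change 0.34, edgeR adjusted p = 0.241). Timm9, the partner of Timm10, had a log2 fold change of 0.43 (edgeR adjusted p = 0.273). The last 2 calls were the least secure: Timm8a1 was lost in 4 and Timm9 in 6 of the 8 fits that left out 1 library, among them the fits without WT saline replicate 1 or 4 or WT insulin replicate 2.

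In the matrix and inner membrane, the exchange factor of the motor and both prohibitins were called, while the motor Hsp70 and the chaperonin barrel were not. Grpel1, the nucleotide exchange factor of the Hsp70 motor, was at 79.1, 81.02, 86.9 and 76.1 CPM in saline and 128, 142, 101 and 121 CPM in insulin-treated WT livers. The groups were apart (log2 fold change 0.61, SE 0.13, edgeR adjusted p = 0.0277). Hspa9, the motor Hsp70, was at 679, 643, 686 and 639.5 CPM in saline and 783, 735, 723 and 742 CPM in insulin-treated WT livers. These groups were apart too, but the change was small and was not called (log2 fold change 0.17, edgeR adjusted p = 0.443). Phb2 was at 122, 121, 112 and 120.0 CPM in saline and 167, 187, 136 and 143 CPM in insulin-treated WT livers, without overlap (log2 fold change 0.41, SE 0.13, edgeR adjusted p = 0.116). Phb, which alternates with Phb2 in the prohibitin ring, was at 91.9, 76.5, 84.9 and 84.4 CPM in saline and 106, 133, 104 and 103 CPM in insulin-treated WT livers. Replicate 2 of the insulin group was far above the other 3, and even the lowest exceeded the saline range (log2 fold change 0.40, SE 0.12, edgeR adjusted p = 0.122).

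Hspd1, the chaperonin barrel, was at 476, 425, 459 and 449 CPM in saline and 480.1, 467, 405 and 470.5 CPM in insulin-treated WT livers. The groups overlapped throughout (log2 fold change 0.01, edgeR adjusted p = 0.971). Its lid Hspe1 was at 56.1, 44.9, 59.8 and 49.1 CPM in saline and 73.6, 103, 53.2 and 69.1 CPM in insulin-treated WT livers. Insulin replicate 2 was the highest of all and insulin replicate 3 lay inside the saline range (log2 fold change 0.51, SE 0.19, edgeR adjusted p = 0.191). Hspe1 was no longer called without insulin replicate 2 (log2 fold change 0.31), the library with the low mitochondrial share, nor without saline replicate 2. Trap1 was at 123, 109.5, 124 and 132 CPM in saline and 115, 119, 118 and 124 CPM in insulin-treated WT livers and overlapped (log2 fold change -0.04, edgeR adjusted p = 0.9).

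Of the proteases only the unfoldase Clpx was called. Clpx was at 245, 197, 199 and 168 CPM in saline and 291, 291, 402 and 323 CPM in insulin-treated WT livers. Insulin replicate 3 was highest, and the groups did not overlap (log2 fold change 0.69, SE 0.15, edgeR adjusted p = 0.035). Clpp, the peptidase that Clpx feeds, was at 40.996, 29.5, 31.3 and 30.1 CPM in saline and 42.2, 48.2, 34.4 and 38.7 CPM in insulin-treated WT livers, with overlap (log2 fold change 0.31, edgeR adjusted p = 0.314). Lonp1, the other soluble matrix protease, was at 138, 138, 139 and 154 CPM in saline and 146, 120.4, 149 and 153 CPM in insulin-treated WT livers. Here the lowest value belonged to an insulin liver (log2 fold change 0.00, edgeR adjusted p = 0.988). The membrane protease Afg3l2 had a log2 fold change of 0.20 with groups apart but no call, and the subunits of the processing peptidase had -0.13 (Pmpca) and 0.24 (Pmpcb).

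**Figure D1:**
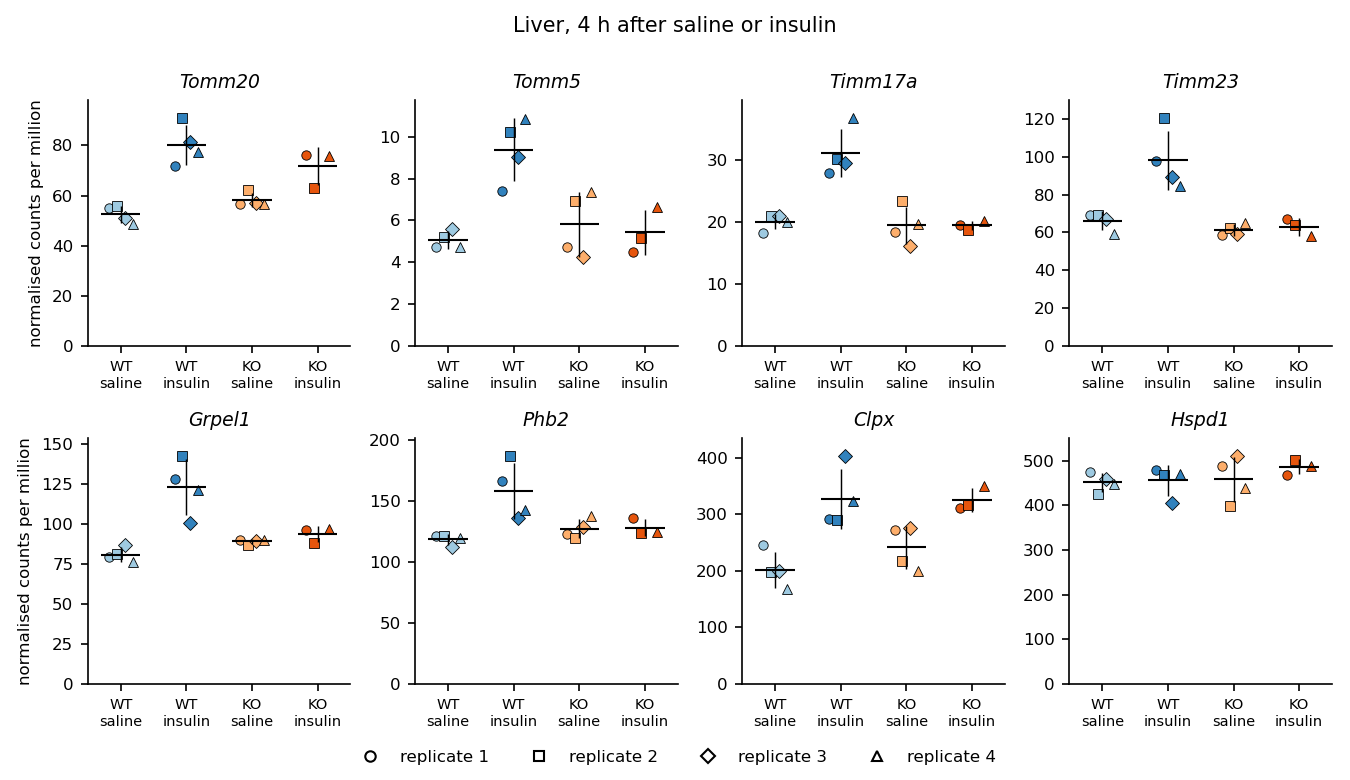
Levels of Tomm20, Tomm5, Timm17a, Timm23, Grpel1, Phb2, Clpx and Hspd1 in CPM (vertical axes) in the 4 liver groups of the insulin experiment (horizontal axes), with 1 point per mouse shaped by replicate number, a line at the mean and a vertical bar of 1 SD. Tomm20 in WT livers goes from 48.5 to 55.7 CPM with saline to 71.7 to 90.9 CPM with insulin, while Hspd1 stays between 405 and 480.1 CPM.

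The count of DEGs was steadier than the count at the adjusted threshold. With 1 library left out, 10 to 15 of the 36 genes were called higher and 0 lower, 10 of the 13 in every such fit, and the median log2 fold change ran from 0.20 (without insulin replicate 2) to 0.31. At an adjusted p under 0.05 the 6 genes became 0 without saline replicate 3, saline replicate 4 or insulin replicate 4, 1 without saline replicate 1, 2 without saline replicate 2, 4 without insulin replicate 3, and 5 without insulin replicate 1 or 2; with all libraries DESeq2 gave 9, and 936 of all 13463 genes. The sum of the adipocyte markers moved with the treatment, with Cidec highest in all 8 WT livers. Adipoq, Plin1 and Cidec summed to 32.9, 48.4, 19.02 and 13.8 CPM in saline and 103, 56.7, 80.8 and 95.9 CPM in insulin-treated WT livers. Of the 3 markers 2 or 3 were read, with Plin1 at 0 in insulin replicates 2, 3 and 4 and in saline replicate 2, and Adipoq at 0 in saline replicate 1. A sum led by Cidec cannot show whether the other markers, or the share of adipocytes, moved. The part of these markers in the result was not tested.

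The neighbours of these genes in the same pathways were read from lists of other import genes (16), other quality control genes (16) and cytosolic heat shock genes (11). Upon insulin in WT liver, 4 of 16 other import genes rose and 0 fell, with a median log2 fold change of 0.27. Chchd4, the oxidase that traps small TIM proteins in the intermembrane space, was at 6.27, 6.295, 7.98 and 8.58 CPM in saline and 10.9, 12.7, 15.2 and 16.2 CPM in insulin-treated WT livers. The groups were apart (log2 fold change 0.92, SE 0.18, edgeR adjusted p = 0.0224). The others were Dnlz, an escort of the motor Hsp70 (0.32), the inner membrane peptidase subunit Immp1l (0.45) and the motor regulator Dnajc15 (0.35). Dnlz and Immp1l were each lost in 4 of 8 fits without 1 library, both without saline replicate 2 or 3. Dnajc15, whose groups overlapped, was not followed through these fits. None of the 16 quality control genes and none of the 11 heat shock genes was called by edgeR, and 0 of either list had an unadjusted p under 0.05.

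In KO liver few of these genes were called upon the same dose of insulin. With edgeR 3 of the 36 rose and 1 fell, where 17.2% of all genes were called (8.05% higher, 9.14% lower). None of the 36 passed an adjusted p under 0.05 by edgeR, against 2.91% of all genes (1.56% higher, 1.35% lower), while 4 had an unadjusted p under 0.05, against 17.8%, and DESeq2 gave 1 at an adjusted p under 0.05 and 988 of all 13684 genes. The median log2 fold change was 0.02, against -0.02 over all genes, and 21 of the 36 were positive, against 47.3%. Without insulin replicate 1 the count of higher genes was 1, and without saline replicate 1 it was 5 higher and 2 lower.

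Clpx was at 272, 218, 275 and 199.8 CPM in saline and 310.4, 317 and 349 CPM in insulin-treated KO livers. The groups were apart, as in WT (log2 fold change 0.43, edgeR adjusted p = 0.136), and this call alone held in every fit with 1 library left out. Tomm20 was at 56.7, 62.4, 56.9 and 56.7 CPM in saline and 76.3, 62.9 and 75.7 CPM in insulin-treated KO livers. All insulin livers again lay above the saline range, replicate 2 by the least (log2 fold change 0.30, edgeR adjusted p = 0.163), and the call was lost without insulin replicate 1 or 4. Timm50 was at 22.7, 24.5, 16.7 and 21.6 CPM in saline and 25.8, 30.1 and 25.2 CPM in insulin-treated KO livers, also without overlap (log2 fold change 0.34, edgeR adjusted p = 0.253). Timm8b, a small intermembrane space chaperone of the Timm8 kind, was at 12.2, 12.2, 14.9 and 17.4 CPM in saline and 9.16, 9.08 and 13.1 CPM in insulin-treated KO livers. It was the one gene that fell, with insulin replicate 4 inside the saline range (log2 fold change -0.45, edgeR adjusted p = 0.238). Timm50 and Timm8b were each called in 3 of 7 fits with 1 library left out, and both were lost without saline replicate 3 or 4 or insulin replicate 1 or 2.

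Apart from Tomm20 and Clpx, the genes past the adjusted threshold in WT were not called here, nor was Phb2. Timm17a was at 18.4, 23.4, 16.1 and 19.7 CPM in saline and 19.4, 18.7 and 20.1 CPM in insulin-treated KO livers, with a log2 fold change of 0.00. Timm23 was at 58.6, 62.5, 59.1 and 65.2 CPM in saline and 67.1, 63.9 and 57.9 CPM in insulin-treated KO livers, with a log2 fold change of 0.03. Tomm5 was at 4.72, 6.93, 4.22 and 7.34 CPM in saline and 4.502, 5.16 and 6.62 CPM in insulin-treated KO livers. Its saline values already spread across the insulin values (log2 fold change -0.10). Grpel1 was at 90.1, 86.6, 89.3 and 90.01 CPM in saline and 96.4, 88.2 and 96.7 CPM in insulin-treated KO livers, with saline and insulin livers close together (log2 fold change 0.07). Phb2 was at 123, 119.7, 129 and 138 CPM in saline and 136, 124 and 124 CPM in insulin-treated KO livers and overlapped (log2 fold change 0.00).

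The other reference genes of each machine gave values near those of saline. Log2 fold changes in KO liver were 0.08 for Hspd1, 0.07 for Hspe1, 0.11 for Hspa9, 0.00 for Trap1, 0.17 for Tomm40 and -0.02 for Tomm70a. They were 0.02 for Timm44, 0.03 for Lonp1 and 0.04 for Clpp, and none of these 9 genes was called. Hspa9 was at 666, 574, 684 and 582 CPM in saline and 689, 682 and 657 CPM in insulin-treated KO livers and Hspd1 at 487, 398, 509.9 and 439 CPM in saline and 469, 502 and 488 CPM in insulin-treated KO livers, with overlap in both. In the pathway lists, 0 of 16 other import genes and 0 of 16 quality control genes were called by edgeR (1 and 0 at an unadjusted p under 0.05), and of 11 heat shock genes only Chordc1 fell (log2 fold change -0.35, edgeR adjusted p = 0.244), lost in 3 of 7 fits without 1 library.

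Whether the insulin effect differed between genotypes was tested as an interaction over the 4 groups, the WT effect minus the KO effect. At the DEG rule 8 of the 36 genes had a positive difference and 0 a negative one, where 8.79% of all genes were called, 4.75% positive and 4.04% negative. None passed an adjusted p under 0.05 by edgeR or by DESeq2, the lowest being 0.422, nor did any other gene by edgeR, and 8 had an unadjusted p under 0.05. The median difference was 0.26, against 0.02 over all genes, and 29 of the 36 were positive, against 51.8%.

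The differences in log2 fold change were 0.99 for Tomm5 (edgeR adjusted p = 0.423), 0.63 for Timm17a (edgeR adjusted p = 0.423) and 0.53 for Timm23 (edgeR adjusted p = 0.442). Grpel1 differed by 0.53 (edgeR adjusted p = 0.422), the smallest p of the 36 genes. The values behind these 4 are those above: in each, insulin-treated WT livers stood apart from the 3 other groups. Timm8a1 had 0.52, Phb2 0.41, Timm13 0.66 and Timm8b 0.66. For Timm8b the called change was the fall in KO (-0.45, against 0.21 in WT, not called). For Timm8a1, a level of 9.21, 9.29, 7.99 and 8.003 CPM in KO saline and 7.16, 8.12 and 7.598 CPM in KO insulin livers lay below both WT groups. For Timm13, the KO levels of 29.1, 29.8, 23.8 and 37.3 and 30.97, 17.9 and 30.4 CPM overlapped with each other and with insulin-treated WT livers. Timm13 and Timm8b were lost in some fits, both without WT saline replicate 2, WT insulin replicate 2, KO saline replicate 4 or KO insulin replicate 2, and the other 6 held in all 15. Of the other import genes, Dnlz (0.51) and Dnajc15 (0.48) were called, the latter in 7 of 15 fits without 1 library, and 0 of the quality control and heat shock genes were called by edgeR or had an unadjusted p under 0.05.

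Between genotypes with saline, the calls went in both directions. In KO against WT liver 2 of the 36 were higher and 5 lower by edgeR, where 11.3% of all genes were called (5.98% higher, 5.3% lower). None passed an adjusted p under 0.05 with edgeR or DESeq2, where edgeR gave 0.0816% of all genes (0.0445% higher, 0.0371% lower), and 8 had an unadjusted p under 0.05, against 12.1%. The median log2 fold change was 0.03, against 0.00 over all genes, and 20 of the 36 were positive, against 50.5%. None of the 7 calls held in every fit with 1 library left out, and the fits called 2 lower without WT replicate 3 or KO replicate 3, 3 lower without WT replicate 4, and 1 higher without WT replicate 2 or 3 or KO replicate 4, not always from among the 7.

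Tomm40l, the minor pore paralog, was at 2.72, 4.01, 3.57 and 5.13 CPM in WT and 2.99, 2.304, 1.61 and 1.97 CPM in KO saline livers. Only WT replicate 1 fell within the KO range (log2 fold change -0.80, edgeR adjusted p = 0.281; not called without WT replicate 4), and its exons lie mostly under Nr1i3. Afg3l2 was at 79.01, 96.7, 105 and 94.8 CPM in WT and 75.4, 79.4, 67.6 and 79.1 CPM in KO saline livers. WT replicate 1 again lay among the KO livers (log2 fold change -0.31, edgeR adjusted p = 0.287; not called without WT replicate 3). Samm50, which inserts outer membrane barrels, was at 94.5, 98.6, 91.4 and 95.3 CPM in WT and 91.8, 65.4, 69.2 and 80.3 CPM in KO saline livers. KO replicate 1 lay within the WT range (log2 fold change -0.31, edgeR adjusted p = 0.319; not called without KO replicate 2 or 3). Timm44 had a log2 fold change of -0.31 (edgeR adjusted p = 0.337) and was called in 3 of 8 such fits. Timm8a1 had -0.31 with groups apart (edgeR adjusted p = 0.339) and was called in 4 of 8.

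Of the higher pair, Timm17b, the second form of the Timm17 channel subunit, was at 24.4, 22.7, 20.9 and 25.04 CPM in WT and 28.6, 24.7, 30.4 and 31.7 CPM in KO saline livers. KO replicate 2 lay inside the WT range (log2 fold change 0.31, edgeR adjusted p = 0.293; not called without WT replicate 3 or KO replicate 4). Timm13 had a log2 fold change of 0.38 (edgeR adjusted p = 0.329; not called without WT replicate 2 or KO replicate 4). Phb was at 91.9, 76.5, 84.9 and 84.4 CPM in WT and 74.1, 69.1, 72.6 and 68.6 CPM in KO saline livers. All KO livers lay below all WT livers, yet the fold change was under the limit of 1.2 (log2 fold change -0.25, edgeR adjusted p = 0.318). Reference genes not called had log2 fold changes of 0.02 (Hspd1), 0.12 (Hspe1), -0.08 (Hspa9), -0.03 (Trap1), 0.15 (Tomm20), -0.13 (Tomm40), 0.03 (Tomm70a), -0.11 (Timm23), -0.19 (Timm50), -0.04 (Timm17a), 0.05 (Lonp1) and 0.13 (Clpp). Among their neighbours, Pam16 (0.49) and Grpel2 (0.33) were higher and the insertase Oxa1l (-0.33) lower of 16 import genes, Afg1l (-0.39) lower of 16 quality control genes and Chordc1 (0.44) higher of 11 heat shock genes. Each of these 5 was lost in 1 or more fits without 1 library, among them KO replicate 1 for Grpel2, Oxa1l, Afg1l and Chordc1 and WT replicate 2 for Pam16.

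After insulin the calls between genotypes went in one direction. In KO against WT liver 0 of the 36 genes were higher and 12 lower, where 9.99% of all genes were called (4.57% higher, 5.42% lower). None passed an adjusted p under 0.05 by edgeR (lowest 0.164), against 0.0585% of all genes (0.0293% in each direction), 12 had an unadjusted p under 0.05, against 10% of all, and DESeq2 gave 5 at an adjusted p under 0.05 and 241 of all 13665 genes. Of the 36 log2 fold changes 7 were positive and 29 negative, where 47.4% of all genes were positive, with a median of -0.20 against -0.02 over all genes. This comparison shares its WT insulin livers with that of insulin in WT liver and its KO insulin livers with that of insulin in KO liver, so the calls are not independent of those above.

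The levels of Timm17a, Timm23, Tomm5 and Grpel1 are given above, and in each all 3 KO livers lay below all 4 WT livers. Their log2 fold changes were -0.69 (Timm17a, edgeR adjusted p = 0.164), -0.65 (Timm23), -0.80 (Tomm5) and -0.40 (Grpel1). Timm8a1 was at 13.3, 16.0, 11.96 and 12.7 CPM in WT and 7.16, 8.12 and 7.598 CPM in KO insulin livers. This was the largest difference of the 12 (log2 fold change -0.83, edgeR adjusted p = 0.166). Phb was at 106, 133, 104 and 103 CPM in WT and 77.2, 80.4 and 75.7 CPM in KO insulin livers, with no overlap (log2 fold change -0.53, edgeR adjusted p = 0.203). Afg3l2 was at 106, 108, 109.7 and 107 CPM in WT and 78.7, 87.3 and 76.98 CPM in KO insulin livers. The WT values were tight and every KO value lay below them (log2 fold change -0.42, edgeR adjusted p = 0.233). Timm44 was at 29.5, 35.2, 31.5 and 36.3 CPM in WT and 22.3, 26.6 and 23.8 CPM in KO insulin livers, again apart (log2 fold change -0.46, edgeR adjusted p = 0.268). Of these 8 genes, all but Grpel1 kept their call in every fit with 1 library left out.

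The weaker calls were Timm10 (-0.77), Timm21, which links the presequence translocase to TOM (-0.53), Samm50 (-0.44) and Timm8b (-0.45). Timm21 was at 10.9, 11.97, 8.03 and 9.37 CPM in WT and 6.32, 7.904 and 6.89 CPM in KO insulin livers. The groups were apart, and the call was lost without KO replicate 1 or 4. Without KO replicate 1 the calls of Timm10, Samm50 and Timm8b were lost as well, and without KO replicate 2 those of Grpel1, Samm50 and Timm8b. Without WT replicate 2, the library with the low mitochondrial share, 10 were lower and 0 higher, where 13.2% of all genes were called, and Samm50 and Timm8b were lost. Hspd1 (0.08), Hspe1 (-0.32), Hspa9 (-0.15), Trap1 (0.00), Tomm20 (-0.18), Tomm40 (-0.20), Tomm70a (-0.04), Timm50 (0.04), Lonp1 (0.08) and Clpp (-0.14) were not called. Of the 16 genes listed as other import, 5 were lower and 0 higher (Oxa1l -0.33, Immp1l -0.46, Chchd4 -0.50, Dnajc15 -0.43 and Timmdc1 -0.39). The first 3 of these were lost without KO replicate 1, while Dnajc15 and Timmdc1 were not followed through the fits. Whether Timmdc1 acts in import was not tested. By contrast, 0 of 16 quality control genes and 0 of 11 heat shock genes were called by edgeR or had an unadjusted p under 0.05.

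**Figure D2:**
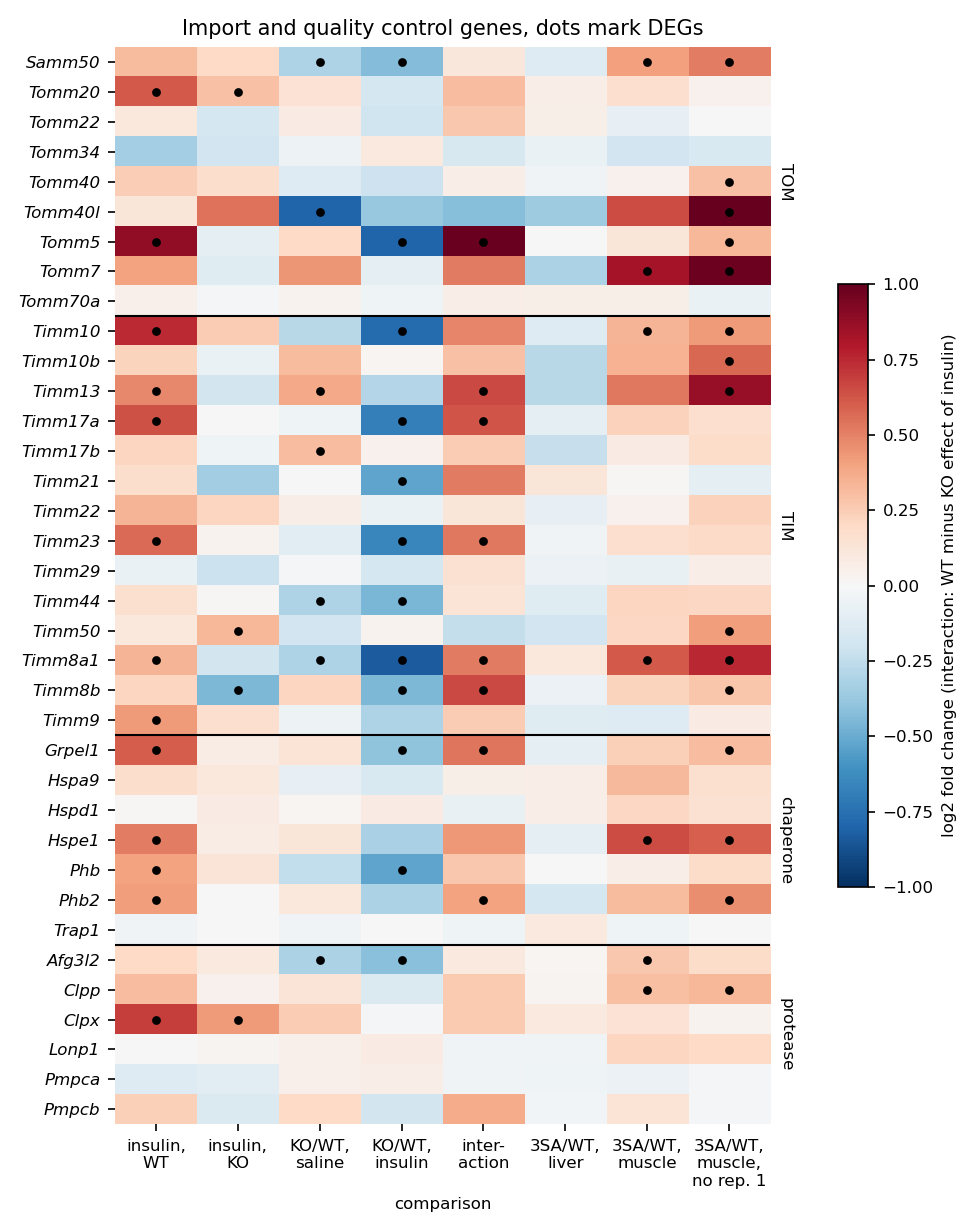
Log2 fold change (colour, limited to ±1) of the 36 tested genes (vertical axis, by role) in 8 comparisons (horizontal axis), including 3SA muscle without replicate 1, with a dot on each DEG. Dots fill 13 cells for insulin in WT liver, 4 for insulin in KO liver and 0 for 3SA liver.

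In 3SA liver none of these genes was called. Against WT littermates 0 of the 36 were higher and 0 lower by edgeR and by DESeq2, where 4.88% of all genes were called (2.5% higher, 2.38% lower), and 2 had an unadjusted p under 0.05, against 7.47% of all. No gene at all passed an adjusted p under 0.05 by edgeR. Of the 36 log2 fold changes 12 were positive, against 49.9% of all genes, with a median of -0.05 against 0.00 over all genes, and 0.01 without 3SA replicate 4, the liver with the low hepatocyte sum. In the fits without WT replicate 3 or 3SA replicate 2, 1 gene was called lower. The cholangiocyte markers summed to less in every 3SA liver than in every WT littermate liver, and their part in these results was not tested.

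Timm17b was at 38.1, 32.2, 30.6 and 33.03 CPM in WT littermate and 30.2, 28.99, 29.95 and 24.9 CPM in 3SA livers. The groups were narrowly apart (log2 fold change -0.23, edgeR adjusted p = 0.639), and the fold change was under the limit. Timm50 was at 36.9, 35.1, 37.002 and 35.6 CPM in WT littermate and 34.97, 31.6, 33.1 and 26.9 CPM in 3SA livers, also apart, with 3SA replicate 4 the lowest (log2 fold change -0.19, edgeR adjusted p = 0.651). Timm44 was at 45.3, 44.9, 48.2 and 44.4 CPM in WT littermate and 44.2, 43.9, 43.9 and 35.4 CPM in 3SA livers. The first 3 of the 3SA livers lay just under the WT range and replicate 4 well below it (log2 fold change -0.12, edgeR adjusted p = 0.754). The matrix chaperones overlapped fully. Hspd1 was at 547, 531, 543 and 517 CPM in WT littermate and 549, 572, 634 and 484 CPM in 3SA livers (log2 fold change 0.07, edgeR adjusted p = 0.881). Hspa9 was at 661, 635, 638 and 631 CPM in WT littermate and 686, 673, 752 and 563 CPM in 3SA livers (log2 fold change 0.06, edgeR adjusted p = 0.901). In both, 3SA replicate 3 was the highest and 3SA replicate 4 the lowest of the 8 livers.

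The remaining reference genes had log2 fold changes of -0.09 (Hspe1), 0.10 (Trap1), 0.06 (Tomm20), -0.03 (Tomm40), 0.06 (Tomm70a), -0.04 (Timm23), -0.09 (Timm17a), -0.03 (Lonp1) and 0.03 (Clpp). Of the cytosolic heat shock genes 3 of 11 were higher: Hsph1 (0.57), Hsp90aa1 (0.50) and Chordc1 (0.33). Hsp90aa1 was at 216, 235, 198 and 195 CPM in WT littermate and 261, 281, 232 and 418 CPM in 3SA livers. Replicate 4 of the 3SA group was the highest, and without it the log2 fold changes of the 3 genes were 0.38 (Hsph1), 0.29 (Hsp90aa1) and 0.27 (Chordc1), all still called. Of the quality control genes Hscb fell (-0.48) among 16, and 0 of 16 other import genes were called by edgeR or had an unadjusted p under 0.05.

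In 3SA muscle the count of calls changed with several single libraries. With all 8 muscles 7 of the 36 genes were higher and 0 lower, where 4.54% of all genes were called (2.78% higher, 1.75% lower). None passed an adjusted p under 0.05 by edgeR, nor did any other gene, 9 had an unadjusted p under 0.05, against 4.77% of all, and DESeq2 gave 2 at an adjusted p under 0.05 and 56 of all 14081 genes. The median log2 fold change was 0.21, against 0.02 over all genes, and 30 of the 36 were positive, against 54.4%. Replicate 1 of the 3SA muscles stood apart by its mitochondrial share, its Esrra count and its share of counts on the 39 genes. That last share is made of the genes tested, so leaving this library out is not neutral to their calls, here and below. Without it, 15 were higher and 0 lower, 9 of them at an edgeR adjusted p under 0.05. Of all genes 17.4% were then called (10.3% higher, 7.1% lower) and 464 of 14363 passed the adjusted threshold. Without 3SA replicate 4, the muscle with the macrophage and fibroblast counts, 12 were higher, where 4.73% of all genes were called (2.8% higher, 1.93% lower). The count dropped to 3 without WT replicate 3 or 3SA replicate 3, to 4 without 3SA replicate 2 and to 5 without WT replicate 1 or 4. With all libraries kept, the count was 3 with the replicate number as a block and 4 with no filter.

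At the outer membrane, a small subunit and the sorting protein were higher whichever library was left out. Tomm7, a small subunit of the pore, was at 14.1, 14.2, 13.6 and 13.8 CPM in WT littermate and 16.8, 28.4, 26.9 and 25.1 CPM in 3SA muscles. All 3SA muscles lay above the WT range, replicate 1 by the least (log2 fold change 0.83 with all libraries and 0.98 without 3SA replicate 1, edgeR adjusted p = 0.383 and 0.00148). Samm50 was at 127, 127, 114 and 129 CPM in WT littermate and 131, 180.1, 184 and 154 CPM in 3SA muscles. Here too replicate 1 was closest to WT and the groups were apart (log2 fold change 0.41 with all libraries and 0.51 without 3SA replicate 1, edgeR adjusted p = 0.903 and 0.0113). Tomm40l was at 7.6996, 7.71, 7.09 and 6.46 CPM in WT littermate and 1.52, 13.5, 16.1 and 13.2 CPM in 3SA muscles. Replicate 1 lay far below WT and the other 3 far above it (log2 fold change 0.65 with all libraries and 1.01 without 3SA replicate 1, edgeR adjusted p = 1 and 0.00419). Tomm40, its main form, was at 24.6, 21.9, 21.04 and 23.1 CPM in WT littermate and 10.2, 28.1, 29.04 and 24.1 CPM in 3SA muscles. Replicate 1 was the lowest of all 8 and replicate 4 lay inside the WT range (log2 fold change 0.04 with all libraries and 0.29 without replicate 1). Tomm5 was at 23.9, 27.1, 25.7 and 28.97 CPM in WT littermate and 15.2, 32.8, 32.6 and 32.01 CPM in 3SA muscles, with replicate 1 below and the other 3 above the WT range (log2 fold change 0.12 and 0.34).

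Among the TIM genes, the split of replicate 1 was plain in the small chaperone Timm13. Timm13 was at 32.6, 30.3, 24.9 and 26.9 CPM in WT littermate and 8.55, 53.6, 50.98 and 48.8 CPM in 3SA muscles. Replicate 1 was the lowest of all 8 muscles and the other 3 were the highest (log2 fold change 0.53 with all libraries and 0.87 without 3SA replicate 1, edgeR adjusted p = 1 and 0.00425). Timm8a1 was at 3.23, 3.04, 2.35 and 2.75 CPM in WT littermate and 2.98, 4.53, 5.28 and 4.22 CPM in 3SA muscles. Replicate 1 lay inside the WT range and the rest above it (log2 fold change 0.61 with all libraries and 0.75 without 3SA replicate 1, edgeR adjusted p = 1 and 0.0431). Timm10 was at 11.5, 11.4, 9.93 and 11.3 CPM in WT littermate and 11.5, 15.2, 13.9 and 14.3 CPM in 3SA muscles, with replicate 1 within the WT range and WT replicate 3 the lowest (log2 fold change 0.34 with all libraries and 0.43 without 3SA replicate 1, edgeR adjusted p = 1 and 0.0415). Without replicate 1 the TIM genes called also included Timm50 (0.42), Timm8b (0.28) and Timm10b (0.58). The channel subunits Timm23 (0.19), Timm17a (0.16) and Timm17b (0.19) were not called.

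In the matrix, the chaperonin lid was called whichever library was left out. Hspe1 was at 40.9, 43.6, 38.7 and 44.9 CPM in WT littermate and 74.1, 59.98, 55.5 and 69.7 CPM in 3SA muscles. Replicate 1 was the highest 3SA value this time, and every 3SA muscle lay above every WT muscle (log2 fold change 0.65 with all libraries and 0.60 without 3SA replicate 1, edgeR adjusted p = 0.318 and 0.022). Its barrel Hspd1 was at 221, 238, 227 and 241 CPM in WT littermate and 300.1, 237, 236 and 279 CPM in 3SA muscles. Replicates 2 and 3 lay within the WT range, replicates 1 and 4 above it, and Hspd1 was not called (0.21 and 0.15). Hspa9 was at 546, 595, 573 and 573 CPM in WT littermate and 943, 628, 638 and 602 CPM in 3SA muscles. All 3SA muscles lay above the WT range, by a wide step only in replicate 1, and the gene was not called either way (0.33 and 0.16). Phb2 was at 73.3, 70.6, 64.1 and 68.5 CPM in WT littermate and 58.98, 91.9, 98.7 and 88.7 CPM in 3SA muscles, low in replicate 1 and high in the others (log2 fold change 0.32 with all libraries and 0.47 without 3SA replicate 1, edgeR adjusted p = 1 and 0.0122). Grpel1 was at 52.7, 53.4, 51.9 and 51.3 CPM in WT littermate and 51.9, 64.97, 65.6 and 59.5 CPM in 3SA muscles, with replicate 1 inside the WT range (log2 fold change 0.24 with all libraries and 0.31 without 3SA replicate 1, edgeR adjusted p = 1 and 0.0282).

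Of the proteases, Clpp was at 19.4, 20.4, 18.6 and 22.1 CPM in WT littermate and 23.2, 26.3, 25.9 and 21.9 CPM in 3SA muscles. Replicate 4 overlapped with WT (log2 fold change 0.30, edgeR adjusted p = 1), and the log2 fold change was 0.33 without replicate 1. Afg3l2 was at 92.9, 94.9, 93.1 and 98.9 CPM in WT littermate and 133, 107, 112 and 96.9 CPM in 3SA muscles. Replicate 1 was the highest, and the log2 fold change of 0.27 became 0.19, no longer called, without it. With 1 library left out, Clpp was called in 4, Timm10 in 3, Timm8a1 in 6 and Afg3l2 in 1 of 8 fits, all lost without WT replicate 3 or 3SA replicate 3, and Hspe1, Tomm7 and Samm50 in all 8. With all libraries kept, Timm8a1, Clpp, Timm10 and Afg3l2 were lost with the replicate number as a block. Clpp, Timm10 and Afg3l2 were also lost with no filter. Esrra itself was at 90.2, 82.7, 66.95 and 78.1 CPM in WT littermate and 24.3, 133, 127 and 94.6 CPM in 3SA muscles. Its groups overlapped and it was not called with all libraries (log2 fold change 0.28, edgeR adjusted p = 1), and the log2 fold change was 0.60 without replicate 1 (edgeR adjusted p = 0.0373).

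**Figure D3:**
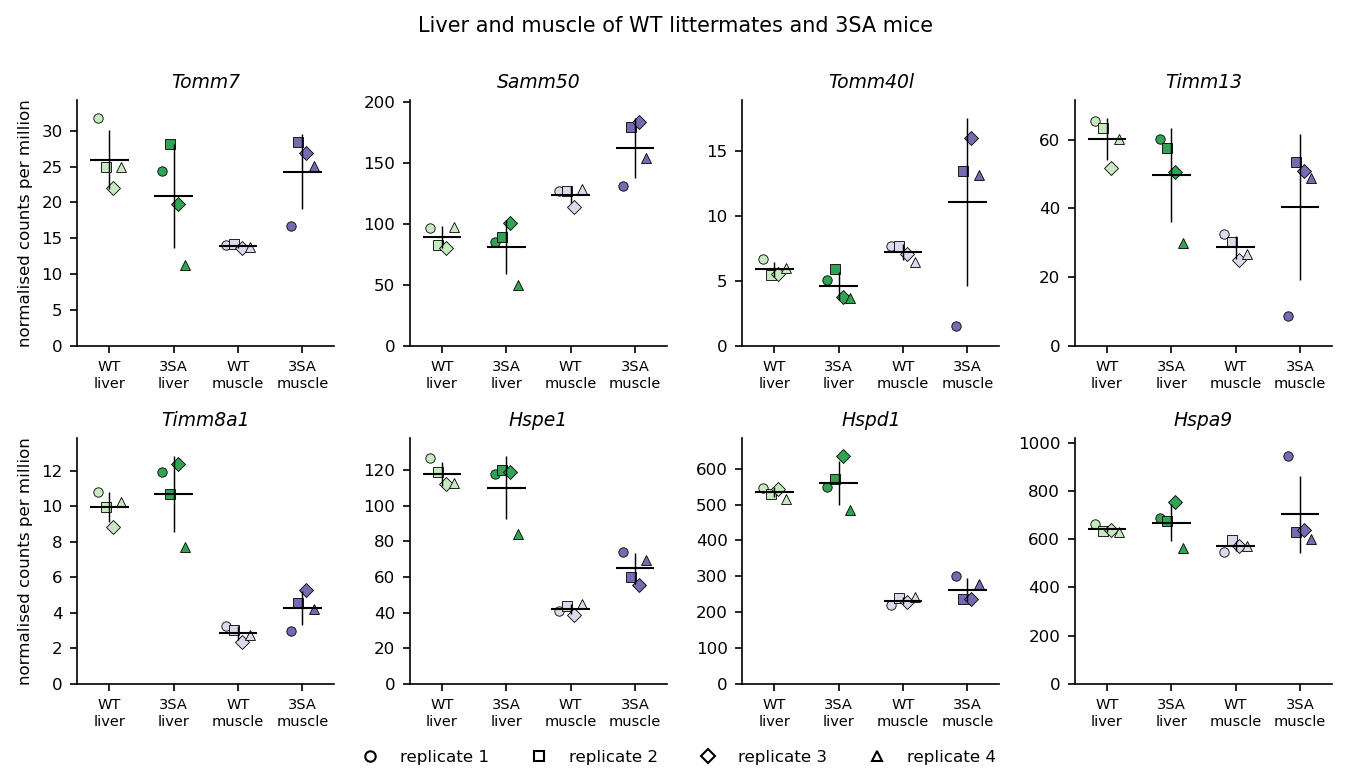
Levels of Tomm7, Samm50, Tomm40l, Timm13, Timm8a1, Hspe1, Hspd1 and Hspa9 in CPM (vertical axes) in WT littermate and 3SA liver and muscle (horizontal axes), with 1 point per mouse shaped by replicate number, a line at the mean and a vertical bar of 1 SD. In 3SA muscle replicate 1 sits at 1.52 CPM for Tomm40l, where the other 3 reach 13.2 to 16.1 CPM, and at 74.1 CPM for Hspe1, above the other 3.

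Pathway neighbours in 3SA muscle gave 3 of 16 other import genes higher and 0 lower. Immp2l, a subunit of the inner membrane peptidase, was at 4.57, 4.94, 4.06 and 5.16 CPM in WT littermate and 7.204, 5.72, 7.32 and 5.82 CPM in 3SA muscles. The groups were apart and the call held in every fit (log2 fold change 0.50, edgeR adjusted p = 0.939). Romo1, a partner of the channel, had a log2 fold change of 0.64 and Chchd4 of 0.37. Both were lost in most fits without 1 library, for example without 3SA replicate 2, but not without replicate 1 (log2 fold changes 0.87 and 0.50, edgeR adjusted p = 0.00386 and 0.0282), where Immp2l, Dnlz (0.43) and Mtx1 (0.29) were called higher as well. Of 16 quality control genes 0 were called by edgeR or had an unadjusted p under 0.05 with all libraries, and without replicate 1 Htra2 (0.64, edgeR adjusted p = 0.0408) and Afg3l1 (0.34, edgeR adjusted p = 0.0342) were higher. The heat shock genes called were Hspa1b (3.08) and Hspa1a (2.66), 2 of 11, and both rested on replicate 4: Hspa1a was at 5.01, 4.89, 6.67 and 93.3 CPM and Hspa1b at 4.95, 6.21, 8.32 and 151 CPM in 3SA muscles. Without that library the log2 fold changes were 0.31 (Hspa1a) and 0.34 (Hspa1b), neither called (both calls also ended without WT replicate 4), and without replicate 1 both stayed called and Hspb1 (1.61) joined them. In the fit without replicate 4, 12 of the 36 import and quality control genes were called higher, 6 of the 7 among them.

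Whether the 3SA effect differed between muscle and liver was tested as a difference over 4 groups, the muscle effect minus the liver effect. At the DEG rule 7 of the 36 genes had a positive difference and 0 a negative one, where 5.57% of all genes were called, 3.16% positive and 2.41% negative. None passed an adjusted p under 0.05 by edgeR or DESeq2, 7 had an unadjusted p under 0.05, and 28 of the 36 differences were positive, against 50.4% of all. Without 3SA muscle replicate 1 there were 17, with 6 at an edgeR adjusted p under 0.05, but of all genes 17.3% were then called (8.53% positive, 8.73% negative) and 369 of 16019 passed the adjusted threshold. Tomm7 differed by 1.12 (edgeR adjusted p = 0.615) and Hspe1 by 0.72 (edgeR adjusted p = 0.459). For Tomm7 the liver levels were 31.7, 24.97, 22.04 and 24.95 CPM in WT littermate and 24.3, 28.1, 19.8 and 11.2 CPM in 3SA livers, with 3SA replicate 4 lowest. For Hspe1 they were 127, 119, 113 and 113 CPM in WT littermate and 118, 120.0, 119 and 83.9 CPM in 3SA livers, overlapping apart from the low replicate 4. The other calls were Samm50 (0.52), Phb2 (0.47), Timm10 (0.44), Timm44 (0.32) and Timm17a (0.29). Only Tomm7 and Hspe1 held in all 16 fits with 1 library left out, the others being lost without 3SA muscle replicate 3, where 2 calls were left, and Phb2, Timm10 and Timm17a without 3SA liver replicate 4. Without 3SA muscle replicate 1 Timm17a was not called either, with a difference of 0.22. With all libraries kept, Phb2, Timm10 and Timm17a were lost with the replicate number as a block, and Timm17a also with DESeq2 size factors or no filter. The count was 3 without WT littermate liver replicate 1, WT littermate muscle replicate 2 or 3SA muscle replicate 2, and 4 without WT littermate liver replicate 4, 3SA liver replicate 4 or WT littermate muscle replicate 1 or 3. Among their neighbours, Romo1 (0.90), Immp2l (0.63) and Chchd4 (0.53) of 16 import genes and Hscb (0.68) of 16 quality control genes had positive differences, that of Hscb with the called change in liver, the first 3 lost without 3SA muscle replicate 3, and 0 of 11 heat shock genes were called by edgeR or had an unadjusted p under 0.05. Without 3SA muscle replicate 1 the calls were 5 positive of 16 import genes, 3 positive and 1 negative of 16 quality control genes, and 1 of either sign of 11 heat shock genes.

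Set against the changes above, the step between tissues was large. In WT littermates 11 of the 36 genes were higher and 16 lower in muscle than in liver at the DEG rule, where 84.2% of all genes were called (42% higher, 42.2% lower), so their share is no larger than that of all genes. At an adjusted p under 0.05 edgeR gave 31 of 36, 14 higher and 17 lower, against 86.5% of all genes (43.1% higher, 43.4% lower), and the median log2 fold change was -0.14 against 0.00. The roles differed in their counts: 4 of 7 chaperones, motor parts or scaffolds were lower in muscle (median -1.04), namely Hspe1, Hspd1, Phb2 and Grpel1. Of the others, 4 were higher and 3 lower of 9 TOM genes, 6 and 5 of 14 TIM genes, and 1 and 4 of 6 proteases.

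The subunits of the presequence channel split between the tissues. Timm17a was at 22.4, 21.2, 22.3 and 24.4 CPM in WT littermate liver and 103, 104, 106 and 101 CPM in muscle. This was the largest step of all 36 (log2 fold change 2.23, edgeR adjusted p = 1.8e-13). Timm23 was at 68.6, 63.4, 73.7 and 70.3 CPM in WT littermate liver and 156, 153, 145 and 162 CPM in muscle. Every muscle lay far above every liver (log2 fold change 1.19, edgeR adjusted p = 3.4e-10). Timm17b went the other way, at 38.1, 32.2, 30.6 and 33.03 CPM in WT littermate liver and 19.1, 21.8, 18.01 and 18.96 CPM in muscle, with the groups apart (log2 fold change -0.75, edgeR adjusted p = 2.1e-06). Timm22, the channel of the carrier translocase, was at 13.8, 13.9, 12.4 and 12.6 CPM in WT littermate liver and 26.6, 28.8, 25.9 and 28.2 CPM in muscle, with tight values in both tissues (log2 fold change 1.085, edgeR adjusted p = 6.6e-09). Tomm20 was at 49.2, 48.2, 45.3 and 49.7 CPM in WT littermate liver and 85.96, 86.05, 83.8 and 85.8 CPM in muscle, without overlap (log2 fold change 0.86, edgeR adjusted p = 3.4e-09). Tomm5 was at 17.4, 14.5, 15.9 and 16.1 CPM in WT littermate liver and 23.9, 27.1, 25.7 and 28.97 CPM in muscle, apart as well (log2 fold change 0.76, edgeR adjusted p = 1.1e-06). Pmpca, the substrate-binding subunit of the processing peptidase, was at 69.6, 67.8, 68.8 and 64.8 CPM in WT littermate liver and 139, 144, 145 and 145 CPM in muscle. Every muscle lay above every liver (log2 fold change 1.11, edgeR adjusted p = 1.7e-10), while its catalytic partner Pmpcb went the other way (log2 fold change -0.67, edgeR adjusted p = 2.8e-07).

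The chaperonin, its unfoldase neighbour and the prohibitin Phb2 were among the genes lower in muscle. Clpx was at 443, 388, 393 and 431 CPM in WT littermate liver and 91.5, 89.2, 85.4 and 83.98 CPM in muscle. This was the deepest step down (log2 fold change -2.21, edgeR adjusted p = 1.2e-12), and Clpp was lower too (log2 fold change -0.98, edgeR adjusted p = 1.2e-08). Timm8a1 was at 10.8, 9.99, 8.83 and 10.3 CPM in WT littermate liver and 3.23, 3.04, 2.35 and 2.75 CPM in muscle, and every muscle lay below every liver (log2 fold change -1.78, edgeR adjusted p = 1.5e-08). Hspe1 was at 127, 119, 113 and 113 CPM in WT littermate liver and 40.9, 43.6, 38.7 and 44.9 CPM in muscle, and the groups lay far apart (log2 fold change -1.45, edgeR adjusted p = 1.1e-10). Hspd1 was at 547, 531, 543 and 517 CPM in WT littermate liver and 221, 238, 227 and 241 CPM in muscle, with the same wide gap (log2 fold change -1.17, edgeR adjusted p = 4.8e-10). Phb2 was at 166, 152, 148 and 147 CPM in WT littermate liver and 73.3, 70.6, 64.1 and 68.5 CPM in muscle (log2 fold change -1.12, edgeR adjusted p = 1.5e-09), whereas Phb kept level, at 121, 106, 109 and 110.4 CPM in WT littermate liver and 114, 119.9, 105 and 107 CPM in muscle (log2 fold change 0.03). Grpel1 was at 117, 114, 99.7 and 111 CPM in WT littermate liver and 52.7, 53.4, 51.9 and 51.3 CPM in muscle, apart (log2 fold change -1.04, edgeR adjusted p = 1.8e-09). Hspa9 was at 661, 635, 638 and 631 CPM in WT littermate liver and 546, 595, 573 and 573 CPM in muscle, a small step that was not called (log2 fold change -0.13, edgeR adjusted p = 0.077). The pathway lists split as well: of 16 other import genes 6 were higher and 7 lower, with the smallest p for Immp2l (-2.36), Mtx1 (-1.54) and Dnajc15 (1.09), of 16 quality control genes 9 and 4, among them Pink1 (1.84) and Spg7 (1.081), and of 11 heat shock genes 6 and 4, with the smallest p for Hspb1 (2.93), Dnaja1 (-2.26) and Hsp90aa1 (-1.48).

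**Figure D4:**
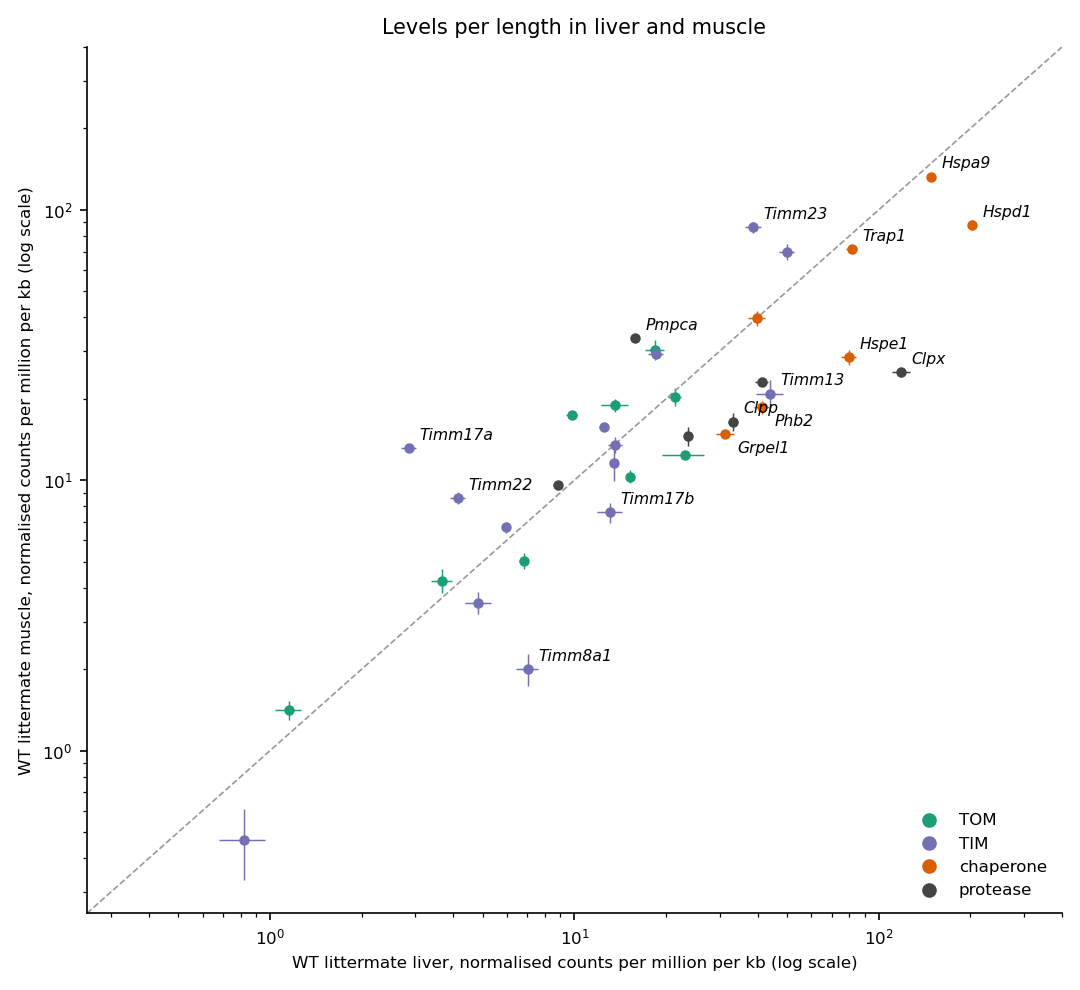
Mean level per length (CPM per kilobase of exon, log axes) of each tested gene in WT littermate liver (horizontal) and muscle (vertical), with bars of 1 SD over 4 mice and a dashed line of equal levels. Timm17a lies above the line at 2.86 in liver and 13.1 in muscle, and Clpx below it at 118 and 25.04.

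Paralog pairs were compared per length, as a ratio within each library and with no test. Timm17b to Timm17a was 5.25, 4.6996, 4.23 and 4.18 in WT littermate livers and 0.573, 0.649, 0.522 and 0.577 in WT littermate muscles. Timm17b thus led in every liver and Timm17a in every muscle. In the insulin experiment the ratio was 4.14, 3.35, 3.1004 and 3.87 in WT saline and 2.73, 3.25, 2.58 and 2.29 in WT insulin livers, and it was 4.81, 3.27, 5.82 and 4.98 in KO saline and 4.43, 3.87 and 5.06 in KO insulin livers. The WT groups overlapped through insulin replicate 2, and all KO insulin livers lay above all WT insulin livers. In 3SA livers it was 4.16, 4.28, 4.31 and 3.85 and in 3SA muscles 0.353, 0.583, 0.5799 and 0.608; the groups overlapped in both tissues, with liver replicates 1 and 4 and muscle replicate 1 below their WT ranges.

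Tomm40l to Tomm40 was 0.192, 0.163, 0.153 and 0.168 in WT littermate livers and 0.275, 0.309, 0.296 and 0.246 in WT littermate muscles, so the pore gene Tomm40 led in both tissues. With the longest coding transcript as the length, the means of 0.169 and 0.281 became 0.0672 and 0.112, and most Tomm40l exon bases are shared with Nr1i3. In 3SA muscles the ratio was 0.131, 0.422, 0.486 and 0.4802, replicate 1 below and the other 3 above the WT range. Timm10b to Timm10 averaged 0.0601 in WT littermate livers and 0.0344 in WT littermate muscles. Timm8a2 to Timm8a1 was 0 in every library, since no read was counted for Timm8a2.

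The chaperonin ratio, Hspe1 to Hspd1 per length, was added after the values had been seen. It was 0.332, 0.328, 0.305 and 0.333 in WT littermate muscles and 0.443, 0.454, 0.422 and 0.447 in 3SA muscles. Here replicate 1 sat with the rest of its group, and the groups were well apart. With the longest coding transcript as the length the means of 0.325 and 0.442 became 0.567 and 0.771, the same factor in every library. In liver it was 0.415, 0.401, 0.372 and 0.391 for WT littermates and 0.385, 0.376, 0.336 and 0.311 for 3SA, with overlap. In the insulin experiment it was 0.212, 0.189, 0.234 and 0.196 in WT saline livers, 0.275, 0.395, 0.235 and 0.263 in WT insulin livers, 0.2197, 0.223, 0.221 and 0.231 in KO saline livers and 0.254, 0.193 and 0.2196 in KO insulin livers. All WT insulin livers lay above all WT saline livers, replicate 2 farthest, and the KO groups overlapped.

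**Figure D5:**
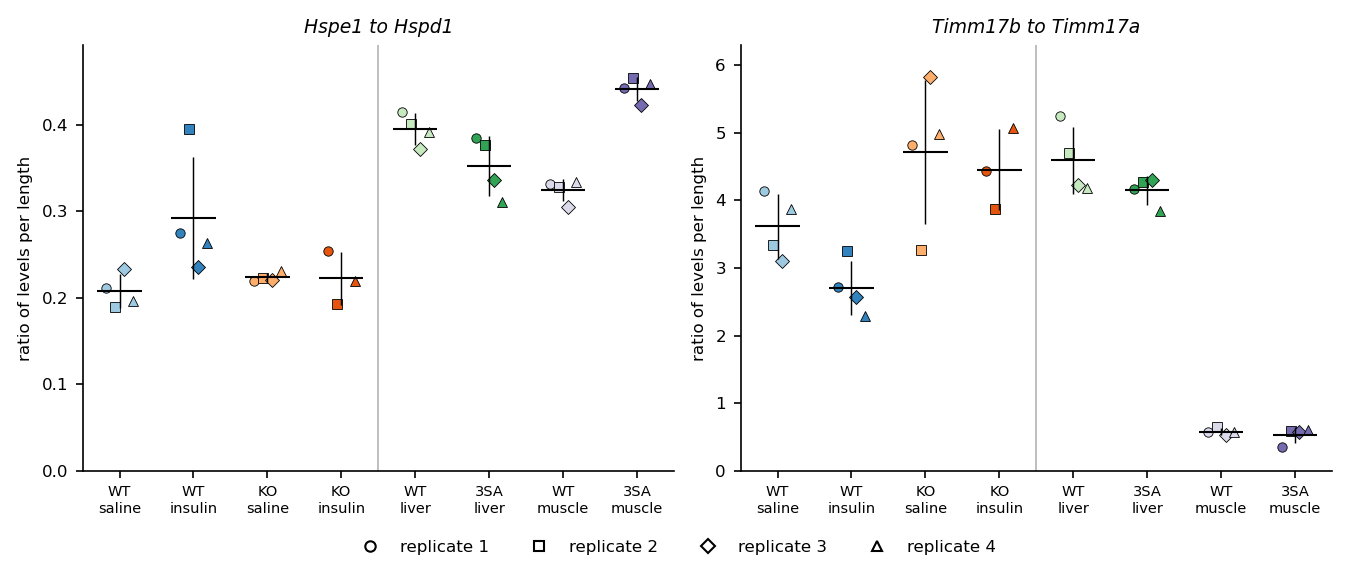
Ratios per length of Hspe1 to Hspd1 and of Timm17b to Timm17a (vertical axes) in the 8 groups (horizontal axis), with 1 point per mouse shaped by replicate number and a line at the mean. Hspe1 to Hspd1 spans 0.305 to 0.333 in WT littermate muscle and 0.422 to 0.454 in 3SA muscle, and Timm17b to Timm17a is below 1 only in muscle.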

How the data were processed

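RNA of 31 mouse libraries in 8 groups was read from both deposited tables of raw counts per gene. Per the methods the authors made NEBNext Ultra paired-end libraries from total RNA, aligned the reads to mm10 with STAR 2.5 and deposited counts per gene without pooling replicates; the strand setting and the annotation release are not stated. All 15 and 16 columns of the tables were matched to samples, with 0 columns left over. The genes and all lists were chosen with earlier results of these data known.

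Each comparison was fitted on its own groups over all genes with edgeR 4.0.16 (glmQLFit and glmQLFTest, TMM factors, filterByExpr, R 4.3.3), with Benjamini-Hochberg adjustment over all genes tested and log2 levels at a prior count of 2. DEGs were called as in the study, at p under 0.05 before adjustment and at least 1.2 times up or down. Alternatives were DESeq2 1.42.0, its size factors, no filter, all 4 groups of a table together, the replicate number as a block, and leaving out each library. Replicate numbers were checked for pairing by correlation within numbers, which ran from -0.22 to 0.33. Different numbers were not correlated for reference, so this check cannot settle whether numbers pair. The main fits used no block, and the block is given as an alternative. Levels per length used the union of GENCODE vM21 exons, or the longest coding transcript. Lists were other import (Pam16, Dnajc19, Dnajc15, Grpel2, Mtx1, Mtx2, Mtx3, Timmdc1, Romo1, Mipep, Immp1l, Immp2l, Chchd4, Gfer, Oxa1l, Dnlz), other quality control (16 genes, among them Spg7, Yme1l1, Oma1, Htra2, Parl, Stoml2, Dnaja3, Afg1l, Afg3l1, Hscb, Atad1, Pitrm1, Clpb, Usp30 and Pink1) and cytosolic heat shock (Hspa8, Hsph1, Dnaja1, Dnajb1, Hspa1a, Hspa1b, Hspa4, Hsp90aa1, Hsp90ab1, Hspb1, Chordc1). Markers were Alb, Apoa1, Ttr, Serpina1a and Tat (hepatocyte), Acta1, Ckm, Myh4, Actn3 and Tnnt3 (muscle fibre), Clec4f, Adgre1, Cd68 and Cd5l (macrophage), Pecam1, Kdr, Stab2 and Cdh5 (endothelial), Col1a1, Col3a1, Dcn and Lrat (stellate or fibroblast), Krt19, Krt7 and Epcam (cholangiocyte), Adipoq, Plin1 and Cidec (adipocyte), and Ptprc, Cd3e, Cd79a and Ms4a1 (lymphocyte).

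Genes were named by rule: up to 8 DEGs with the smallest p per comparison (6 largest fold changes each way between tissues), in liver also Hspd1, Hspe1, Hspa9, Trap1, Tomm20, Tomm40, Tomm70a, Timm23, Timm44, Timm50, Timm17a, Lonp1 and Clpp, the paralog pairs, Esrra and Igfbp1, and up to 3 DEGs per list, where not every gene so chosen is reported; other genes were named after their values were seen. Figures were drawn with matplotlib 3.10.9 under Python 3.11.15.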

Additional observations from a re-analysis of the deposited data

Results flagged for a closer look

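Within groups of 4, single libraries far from the other 3 were picked by the ratio of the gap to the range, a measure that chance passes in about 1 in 20 groups and that 10 of 80 groups passed here. The median level of the tested genes was 5.28 log2 CPM in 3SA liver replicate 4. The mitochondrial genome took 1.88% of counts in WT insulin liver replicate 2, 3.91% in KO saline liver replicate 3 and 19.3% in 3SA muscle replicate 1, where the 39 genes took 0.267%. Esrra had 869 counts in WT littermate liver replicate 1, the deepest library of its group. Phb was at 133 CPM in WT insulin liver replicate 2, Tomm20 at 62.4 CPM in KO saline liver replicate 2, and WT littermate muscle replicate 3 held Samm50 at 114 CPM and Timm10 at 9.93 CPM.

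Effects that differed between groups by their own test at an unadjusted edgeR p under 0.05, with 0 at an adjusted p under 0.05, were the following. The insulin effect in log2, WT minus KO liver with signs kept, differed by 0.53 for Grpel1, 0.63 for Timm17a, 0.99 for Tomm5, 0.53 for Timm23, 0.52 for Timm8a1, 0.41 for Phb2, 0.66 for Timm13 and 0.66 for Timm8b, where the called change was a fall in KO. The 3SA effect in log2, muscle minus liver with signs kept, differed by 0.72 for Hspe1, 1.12 for Tomm7, 0.32 for Timm44, 0.47 for Phb2, 0.44 for Timm10, 0.52 for Samm50 and 0.29 for Timm17a.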

How the results depend on the processing

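With all libraries, 166 of the summary values stayed within their limits and 12 moved, and of the single gene results 594 kept their side of the threshold and 39 lost their call; with 1 library left out these were 307 and 33, and 1002 and 189. No called gene turned its direction, and of the summary values only the median of 3SA liver changed sign, from -0.05 to 0.01 without 3SA replicate 4. The cause was not tested for those that moved. With the replicate block, insulin in KO liver gave 1 higher and 2 lower, 3SA muscle 3 higher, and the 3SA effect of muscle against liver 4, and it moved no other count of these genes by over 1.5 times. In 3SA muscle the genes called were 334 of all with that block, 1071 with no filter and 1013 with all 4 groups of a table fitted together, against 639. With no filter, 3SA liver gave 1050 genes of all against 651, and 3SA muscle 4 higher. With all 4 groups of a table fitted together, KO against WT with saline gave 1 higher. With the longest coding transcript, Tomm40l to Tomm40 was 0.0672 in WT littermate liver and 0.112 in muscle, and Hspe1 to Hspd1, added later, 0.689 and 0.567. With 1 library left out, insulin in KO liver ranged from 1 to 5 higher and 0 to 2 lower, KO against WT with saline from 1 to 3 higher and 2 to 5 lower, KO against WT with insulin from 818 to 1778 of all genes, 3SA liver from 0 to 1 lower, 3SA muscle from 3 to 15 higher and 378 to 2506 of all, and muscle against liver from 2 to 17 higher and 710 to 2766 of all.

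Groups of 3 or 4 mice limit what these tests can call, most of all after adjustment. Counts are per gene, so isoforms and protein levels were not measured, and reads of overlapping genes cannot be told apart. Single libraries carry several results: 3SA muscle replicate 1 and WT insulin liver replicate 2 stood apart by their mitochondrial share, 3SA muscle replicate 4 and 3SA liver replicate 4 by markers of other cells. For 3SA muscle replicate 1 the Esrra count and the share of counts on the genes described here were low as well. Whether same-numbered liver and muscle came from 1 mouse is not stated.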
